A study of Mus musculus with 16 samples.

Results

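Presymptomatic libraries were compared with naive libraries to ask whether chromatin accessibility in retinal ganglion cells had shifted before mice with experimental autoimmune encephalomyelitis (EAE) showed signs of disease. The comparison used 9 of the 16 libraries of the series, 4 labelled presymptomatic and 5 labelled naive, and was made over 37255 gene intervals. All libraries were ATAC-seq of ganglion cells that had been sorted by flow cytometry out of eyes of female mice, from about 15000 to 50000 cells each. Presymptomatic mice had EAE induced at 7 to 8 weeks of age, and naive mice carry the treatment label Control and no disease stage. Strain, genotype, inducing antigen, days after induction and the age of the naive mice are not stated by the labels. The labels do not tie libraries to separate animals, so the p-values measure the spread between these libraries, part of which may be technical. The other libraries, 3 from disease onset and 4 from disease peak, entered the fit that estimates the spread and a short comparison at the end.

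EAE is an autoimmune attack on myelin, driven by T cells, that in mice often includes the optic nerve. Retinal ganglion cells are the neurons whose axons form that nerve, and they are injured and lost in the course of the disease. In ATAC-seq a transposase cuts DNA that is not wrapped in compact chromatin, so reads gather at open promoters and enhancers and, more thinly, along the bodies of active genes. A presymptomatic stage lies between immunisation and the first motor signs, when immune cells are already primed outside the nervous system.

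Reads were counted over each gene with 1000 bp removed from each end, so the outermost start of genes longer than 1000 bp lay outside the counted interval. Some intervals were merged over several transcripts or held other genes, so promoters inside a gene could still be counted. Levels are given as CPM, counts-per-million of reads in intervals after TMM scaling, and fold changes are log2 of presymptomatic over naive. Nuclear reads in intervals were 7.92 ± 4.24 M (megareads) in the 5 naive (SD, n = 5) and 6.37 ± 2.81 M in the 4 presymptomatic libraries (SD, n = 4). They ranged from 2.23 M in presymptomatic replicate 4 to 15.1 M in naive replicate 2. The 13 mitochondrial intervals took 52.5 ± 9.34% of interval reads in naive and 43.1 ± 6.20% in presymptomatic libraries, a difference of -9.41 percentage points (exact permutation p = 0.143, two-sided). Without naive replicate 2 that difference was -12.7 points (exact permutation p = 0.0286, the smallest value this test can give with 4 libraries in each group). In the other 8 settings with 1 library left out the p by this test was not under 0.05.

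Before any gene was compared, 2 naive libraries stood apart. Intervals of olfactory and vomeronasal receptors, genes that are silent in the retina, held 0.580% of nuclear reads in naive replicate 3 and 0.511% in naive replicate 4. The other naive libraries had 0.279%, 0.201% and 0.228%, and the 4 presymptomatic libraries had 0.310%, 0.405%, 0.364% and 0.379%. The share of chromosome X followed the same order at its ends, with 8.18% and 7.10% in naive replicates 3 and 4. It was 4.36%, 3.33% and 3.66% in the other naive libraries and 4.41%, 5.48%, 5.21% and 4.85% in the presymptomatic libraries. Presymptomatic libraries thus sat between low and high naive libraries on both measures, and the mean receptor shares differed by 0.00464 points (exact permutation p = 0.968). Presymptomatic replicate 4 stood apart along the second principal component of the 9 libraries, at -132 where the others lay between -6.24 and 56.6.

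**Figure D1:**
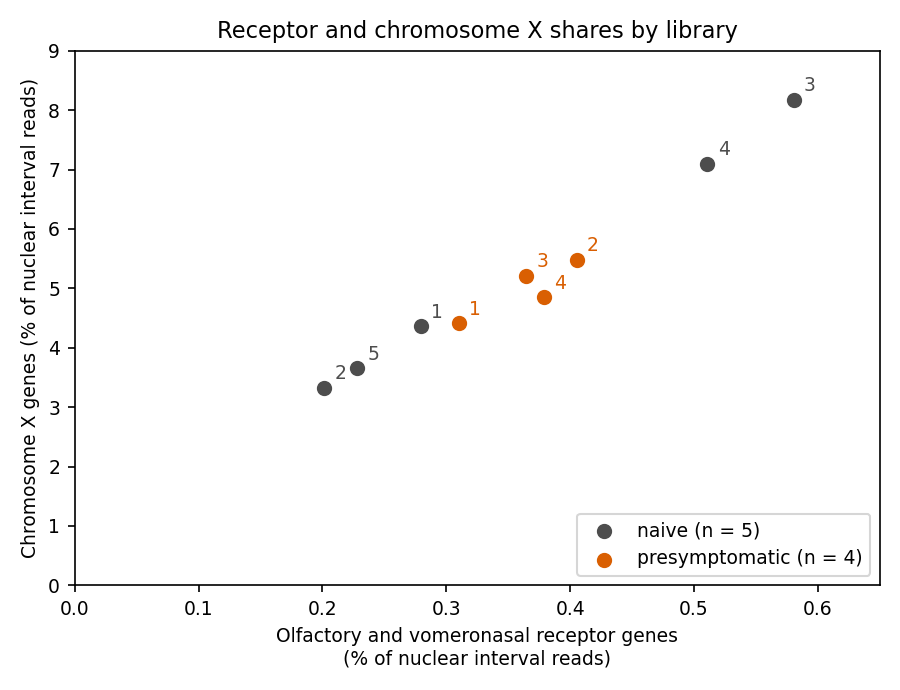
Each point is a library, with its replicate number, placed by the percent of nuclear interval reads in olfactory and vomeronasal receptor genes (x axis) and in chromosome X genes (y axis). Naive replicates 3 and 4 lie at the upper right, at 8.18% and 7.10% for chromosome X, and the 4 presymptomatic libraries lie between 4.41% and 5.48%.

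No gene passed the test between presymptomatic and naive retinal ganglion cells. Of 29902 genes tested with edgeR's quasi-likelihood test, 0 (0%) had a Benjamini-Hochberg adjusted p under 0.05, and the smallest adjusted p was 0.9998. An unadjusted p under 0.05 was reached by 348 genes (1.16%), 105 higher and 243 lower in presymptomatic libraries. A share of 0.05 of these tests would be about 1495 genes. DESeq2 also called 0 genes, with 516 at an unadjusted p under 0.05. Limma voom with quality weights called 0, with 1628 and a smallest adjusted p of 0.1752. The 4 presymptomatic libraries lay all above the 5 naive libraries for 109 genes (0.365%) and all below for 144 (0.482%), together 253 genes (0.846%). The 95% interval of the fold change stayed within a 2-fold change either way for 14480 genes (48.4%).

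How small a difference the data could bound depended on coverage. Among the 7476 genes with the highest mean CPM, 14.86 and above, the median standard error was 0.245 on the log2 scale and 95.6% of intervals stayed within 2-fold. Among the 7476 genes with the lowest mean CPM the median standard error was 0.724, and 0.134% of intervals stayed within 2-fold. Naive libraries were more spread than presymptomatic ones, with a median standard deviation of log2 CPM of 0.555 against 0.397, and 67.7% of genes had the larger spread in naive libraries. Correlations of log2 CPM between a naive and a presymptomatic library had a median of 0.926 over 20 pairs, against 0.897 over the 10 pairs of naive libraries and 0.929 over the 6 pairs of presymptomatic libraries. These pairs share libraries and every library shares the base level of each gene, and the values are given as a description. Without naive replicates 3 and 4 there were still 0 genes called. Of 29518 genes tested in that fit, 1738 reached an unadjusted p under 0.05, 1133 of them higher. A share of 0.05 of the tests in the main fit would be about 1495 genes. The smallest adjusted p by edgeR's quasi-likelihood test without those 2 libraries was 0.4395.

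The ganglion cell label was checked against 29 tested marker genes. Their median density was 0.970 reads per kb of interval and M nuclear reads in naive libraries (range 0.802 to 1.045 over libraries) and 0.870 in presymptomatic libraries (range 0.720 to 0.964). All nuclear genes had medians of 0.573 and 0.618. Rod genes reached 1.035 and 0.925 on the same density scale, and amacrine and horizontal cell genes 1.08 and 1.10. Cone genes were below the ganglion cell list, at 0.754 and 0.735, as were bipolar cell genes, at 0.669 and 0.776. Müller glia and astrocyte genes had 0.940 and 0.773, and pigment epithelium genes 0.881 and 0.989. By these medians over libraries the ganglion cell list stood above cone and bipolar genes and below rod and amacrine genes in both groups. Single libraries departed from that order. Naive replicate 3 had 1.025 for ganglion cell and 0.790 for rod genes. Presymptomatic replicate 4 had 0.720 for ganglion cell, 0.789 for cone and 1.058 for bipolar genes. These differences between lists were not tested.

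Ganglion cell identity genes had levels that overlapped between the groups. Rbpms, an RNA-binding protein that marks nearly all ganglion cells (chr8:33782643-33929896), had 81.1, 95.8, 104, 68.7 and 112 CPM in naive and 85.0, 92.2, 112 and 78.5 CPM in presymptomatic libraries. Its log2 fold change was -0.00376 ± 0.22 (SE), with a 95% interval of -0.45 to 0.45. Slc17a6, the vesicular glutamate transporter of these neurons, had 17.9, 13.5, 18.5, 18.7 and 19.9 CPM in naive and 12.5, 13.0, 17.3 and 23.8 CPM in presymptomatic libraries, a log2 fold change of -0.10 ± 0.25. For Rbpms the ranges of the groups overlapped almost fully. For Slc17a6 the groups overlapped, but the presymptomatic values were more spread and reached below and above the naive range.

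The other markers were read at a few CPM and less firmly bounded. Thy1, a surface protein often used to sort ganglion cells, had 6.94, 2.57, 6.05, 6.54 and 3.94 CPM in naive and 5.10, 3.84, 3.13 and 0.466 CPM in presymptomatic libraries. Its log2 fold change was -0.65 ± 0.43, and the lowest of the 9 values was that of presymptomatic replicate 4, the shallowest library. The transcription factors Pou4f1 and Pou4f2 had log2 fold changes of -0.01 ± 0.57 and -0.60 ± 0.78, and the neurofilament genes Nefl, Nefm and Nefh had -0.34 ± 0.61, 0.08 ± 0.41 and -0.11 ± 0.45. Isl2, a transcription factor of a subset of ganglion cells, had the smallest unadjusted p of the list, with 4.16 ± 1.88 CPM in naive libraries (SD, n = 5) against 2.26 ± 0.464 CPM in the presymptomatic ones (SD, n = 4). Of the 29 tested markers 11 were higher and 18 lower, 0 had groups that did not overlap, and the median log2 fold change was -0.02 against -0.06 over all genes. In sorted bulk libraries, fewer cells of a type and less open chromatin per cell cannot be told apart.

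**Figure D2:**
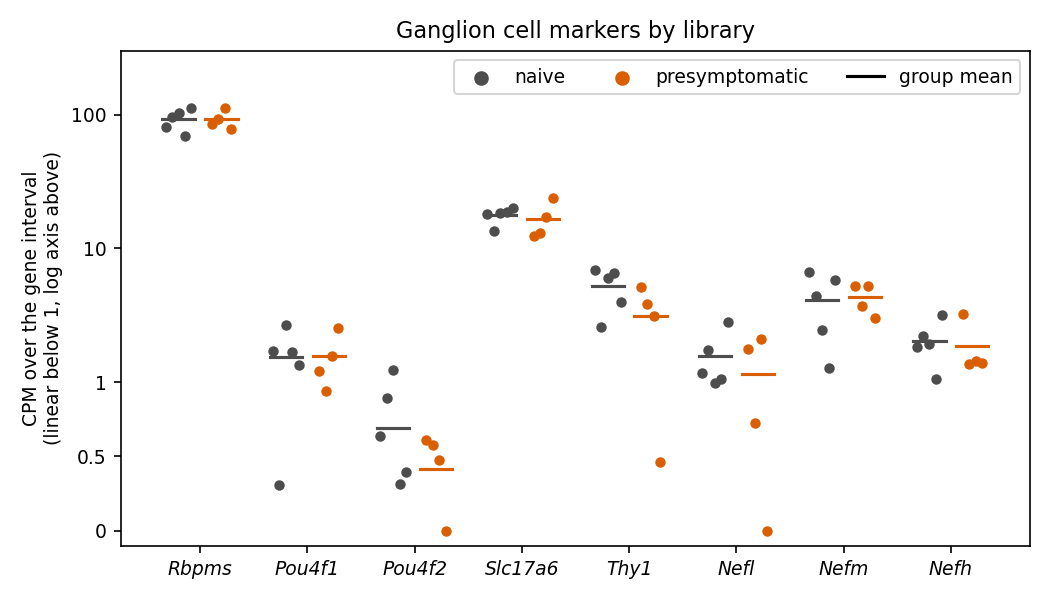
CPM of 8 ganglion cell markers in each naive (n = 5) and presymptomatic (n = 4) library, with a bar at each group mean; the y axis is linear below 1 CPM and logarithmic above. The groups overlap for every marker shown, with naive and presymptomatic means of 92.2 and 91.9 CPM for Rbpms and of 0.694 and 0.416 CPM for Pou4f2, and presymptomatic replicate 4 has 0 reads for Pou4f2 and Nefl.

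Genes of the other retinal cells were also found at overlapping levels save for Abca4. Over all genes, 0.846% had groups that did not overlap. Of the 19 tested rod genes 4 were higher in presymptomatic libraries (21.1%, against 41.6% of all genes) and the median log2 fold change was -0.16. That median was -0.41 without presymptomatic replicate 4, -0.062 without presymptomatic replicate 3 and -0.029 without naive replicate 4. Pde6b, a subunit of the rod phosphodiesterase, had a log2 fold change of -0.49 ± 0.30. Abca4 is the transporter that clears retinoids from photoreceptor discs (chr3:122043891-122180070). It had 85.4, 89.1, 87.2, 80.3 and 72.2 CPM in naive and 94.97, 96.9, 113 and 125 CPM in presymptomatic libraries, all above, with a log2 fold change of 0.37 ± 0.19. The median log2 fold changes of the cone (12 genes tested), bipolar (16) and amacrine and horizontal (18) lists were -0.05, -0.02 and -0.03. Müller glia and astrocyte genes had a median of -0.12, with 13 of 18 lower and none with groups apart. The pigment epithelium list had a median of 0.06, and its gene of smallest p, Rgr, a retinal opsin of pigment epithelium and Müller glia, had 3.62 ± 0.749 CPM in naive libraries (SD, n = 5) against 6.02 ± 1.99 CPM in the presymptomatic ones (SD, n = 4).

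Markers of immune cells stood on both sides of the naive levels. Lymphocyte genes had a median density of 0.488 reads per kb and M nuclear reads in naive and 0.567 in presymptomatic libraries, and microglia and macrophage genes 0.513 and 0.502, both below the median of all nuclear genes. Among 20 tested lymphocyte genes 12 were higher and 8 lower, and their fold changes had a median of 0.04 on the log2 scale, against -0.06 over all genes. That median ran from -0.073 without naive replicate 3 to 0.15 with the receptor share as a covariate. Cd4, the coreceptor of helper T cells, had a mean of 5.98 CPM in naive and 6.65 CPM in presymptomatic libraries, a log2 fold change of 0.16 ± 0.39. The members of smallest p, Tbx21 and Cd8a, were lower, unlike most of the list. Tbx21, the transcription factor of type 1 helper T cells, had 2.35, 3.70, 0.766, 4.64 and 6.23 CPM in naive and 2.55, 1.60, 2.04 and 1.86 CPM in presymptomatic libraries. Cd8a, the coreceptor of cytotoxic T cells, had 1.76 ± 1.10 CPM in naive libraries (SD, n = 5) against 1.02 ± 0.299 CPM in the presymptomatic ones (SD, n = 4). Both sets of values overlapped, and the log2 fold change of Cd8a was -0.76, or -0.035 without naive replicates 3 and 4.

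Among 15 tested microglia and macrophage genes 10 were lower and the median log2 fold change was -0.24. It was -0.05 without naive replicates 3 and 4 and -0.38 without presymptomatic replicate 1. Adgre1, which encodes the macrophage surface protein F4/80, had 19.7, 17.5, 50.8, 43.2 and 41.3 CPM in naive and 20.8, 31.8, 28.5 and 17.9 CPM in presymptomatic libraries, so the naive values formed a low pair and a high set, and no presymptomatic value reached the high set. Siglech, named here after its values were seen, was the 1 member of 15 whose groups did not overlap, against 0.846% of all genes. It had 2.00 to 2.83 CPM in naive and 1.46 to 1.90 CPM in presymptomatic libraries. Endothelial and pericyte genes (19 tested) and oligodendrocyte genes (14 tested) both had a median of 0.02, with no member apart.

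Interferon response genes, 39 tested, were higher in 16 and lower in 23 cases, and the median log2 fold change was -0.07. An unadjusted p under 0.05 was reached by 3 of the 39, against 1.16% of all genes. Samhd1, a dNTP hydrolase that restricts viruses (chr2:157097529-157135277), had 12.8, 9.70, 9.58, 27.7 and 13.6 CPM in naive and 9.17, 7.25, 7.28 and 6.99 CPM in presymptomatic libraries. All presymptomatic values lay below all naive ones, and the log2 fold change was -0.92 ± 0.30, or -0.56 without naive replicate 4. Ifit1, an interferon-induced RNA-binding protein, went the other way, with 0.641, 0.926, 0.766, 1.27 and 0.788 CPM in naive and 2.07, 2.68, 0.816 and 3.26 CPM in presymptomatic libraries. Its log2 fold change was 1.28 ± 0.53, and presymptomatic replicate 3 lay inside the naive range.

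Antigen presentation genes were higher in 4 of 18 cases (22.2%, against 41.6% of all genes) and had a median log2 fold change of -0.28, or -0.092 without presymptomatic replicate 3. They were also read at low levels, with a median of 3.00 CPM in naive and 1.73 CPM in presymptomatic libraries, and 6 of 18 intervals stayed within 2-fold. Tap2, a subunit of the peptide transporter for class I molecules, had 3.82 ± 1.70 CPM in naive libraries (SD, n = 5) against 2.09 ± 0.882 CPM in the presymptomatic ones (SD, n = 4). The NF-kB and cytokine list had 13 of 20 genes higher and a median of 0.09, which was -0.15 without naive replicates 3 and 4. In it, Lbp, which binds bacterial lipopolysaccharide, had 7.26, 5.59, 3.37, 10.0 and 5.20 CPM in naive and 10.0, 9.79, 6.94 and 19.1 CPM in presymptomatic libraries, a log2 fold change of 0.85 ± 0.36 with overlap. Complement genes had 9 of 14 higher and a median of 0.09, which was -0.045 without presymptomatic replicate 4. C3ar1, the receptor for the C3a fragment, was the 1 member of 14 with groups apart, where 0.846% of all genes had such groups. It had 1.59 ± 0.199 CPM in naive libraries (SD, n = 5) against 0.999 ± 0.296 CPM in the presymptomatic ones (SD, n = 4), lower in all 4. C3ar1 had only 4 to 18 reads per presymptomatic library. Its log2 fold change was -0.66 ± 0.62, with a 95% interval of -1.92 to 0.61.

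Genes of neuronal injury, stress and cell death had 0 members whose groups did not overlap, near the 0.846% of all genes. Of the 25 tested axon injury genes 10 were higher and 15 lower; the list had a median log2 fold change of -0.05. Csrnp1 and Rtn4r, the latter a receptor for myelin proteins that block axon growth, had the smallest p of the list, with log2 fold changes of -0.51 ± 0.32 for both. The integrated stress and unfolded protein list had 11 of 24 genes higher and a median of -0.07. Its gene of smallest p was Sesn2, a stress-induced regulator of mTORC1 signalling, with 2.88, 5.35, 5.44, 4.96 and 3.07 CPM in naive and 2.31, 2.03, 2.99 and 0.931 CPM in presymptomatic libraries. A single pair of values kept those groups from lying apart. Cell death genes were higher in 5 of 26 cases (19.2%), with a median of -0.14 that ran from -0.21 without naive replicates 3 and 4 to -0.059 with limma voom. Nlrp3, the sensor of the inflammasome, had 5.60 ± 1.96 CPM in naive libraries (SD, n = 5) against 3.37 ± 0.794 CPM in the presymptomatic ones (SD, n = 4), and Hrk, a proapoptotic protein of neurons, had 4.23 ± 1.43 and 2.57 ± 0.863 CPM.

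The most tightly bounded lists were those of neuronal function, whose genes had median levels of 76.3 and 57.2 CPM in naive libraries. For synapse and axon genes 25 of 26 intervals stayed within 2-fold, and for ion channels and glutamate receptors 26 of 27, against 48.4% of all genes. Their median log2 fold changes were -0.08 and -0.06. Syt1, the calcium sensor of synaptic vesicle release, had 229, 379, 199, 208 and 326 CPM in naive and 203, 211, 267 and 240 CPM in presymptomatic libraries, with a log2 fold change of -0.22 ± 0.23. Slc12a2, which encodes the chloride importer NKCC1, was the channel list's gene of smallest p, with 20.9, 14.4, 18.8, 12.3 and 13.1 CPM in naive and 24.1, 23.1, 19.5 and 31.0 CPM in presymptomatic libraries. Its log2 fold change was 0.61 ± 0.24, and presymptomatic replicate 3 lay below naive replicate 1. Scn8a, the main sodium channel of mature axons, had -0.29 ± 0.22. Nuclear genes of oxidative phosphorylation were thinly covered, at a median of 2.65 CPM in naive libraries; the median log2 fold change was -0.12 and 7 of 26 intervals within 2-fold.

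Immediate early genes and replication-cluster histones differed more between naive libraries than between the groups. The median log2 fold change was -0.26 for both lists, with 14 of 21 immediate early genes and 20 of 24 histone genes lower. Without naive replicates 3 and 4 the medians were -0.56 and -0.58. They were -0.051 and 0.027 without naive replicate 5, and -0.0093 and 0.073 with the replicate number as a block, so the histone median turned sign. Without naive replicate 2 they were -0.032 and -0.15. The mean log2 CPM of the immediate early list was 2.67, 3.12, 1.82, 2.25 and 2.91 in naive and 2.69, 2.36, 2.52 and 2.02 in presymptomatic libraries. That of the histone list was 2.96, 3.57, 2.77, 2.16 and 3.97 in naive and 2.92, 2.60, 3.46 and 2.98 in presymptomatic libraries. For both lists the naive libraries held the highest and the lowest value, and the 2 lowest naive values were those of replicates 3 and 4, whose receptor shares were highest; the part of that difference in the result was not tested. Homer1, a postsynaptic scaffold on the synapse and immediate early lists, had 35.2 ± 7.75 CPM in naive libraries (SD, n = 5) against 26.4 ± 1.23 CPM in the presymptomatic ones (SD, n = 4), and Nr4a1, an activity-induced nuclear receptor, 14.4 ± 4.20 and 9.50 ± 4.27 CPM.

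Cellular rejuvenation is named in the title of the series, and 20 reprogramming factors, DNA methylation enzymes and related chromatin genes were tested. In 8 the level was higher and in 12 lower, and the median was -0.06 on the log2 scale. Of the 20, 1 lay all below naive, against 0.482% of all genes. An unadjusted p under 0.05 by edgeR's quasi-likelihood test was reached by 1, against 1.16% of all genes. Dnmt3b, a de novo DNA methyltransferase, had 11.0, 10.5, 20.1, 12.2 and 13.7 CPM in naive and 10.6, 11.0, 6.94 and 7.92 CPM in presymptomatic libraries, which overlapped. Its log2 fold change was -0.56 ± 0.28.

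**Figure D3:**
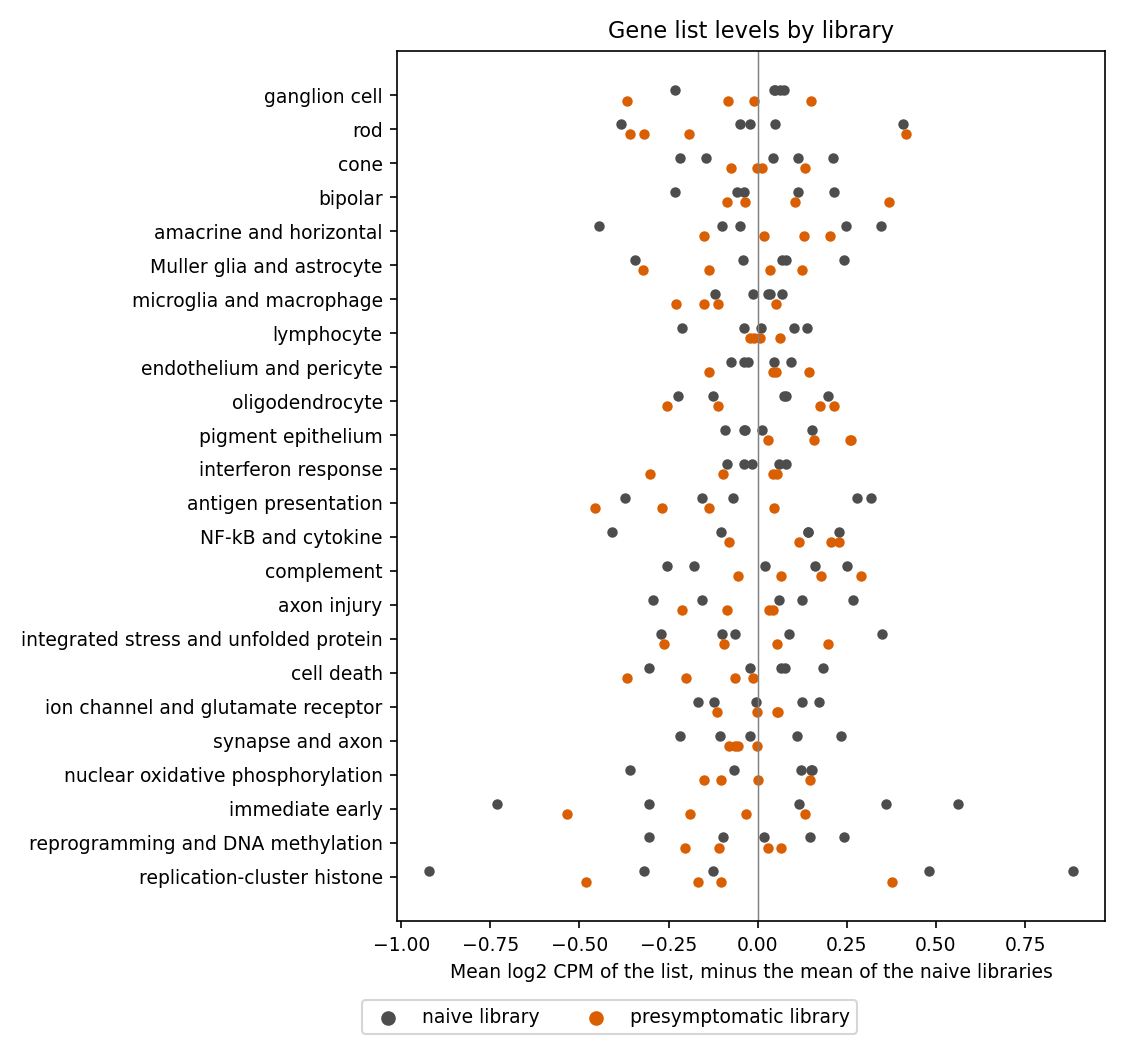
Mean log2 CPM of each gene list in each library, minus the mean of the 5 naive libraries, on the x axis, with 1 row per list. Naive (dark) and presymptomatic (orange) libraries overlap for every list, and the histone list has the widest spread, with its lowest library, naive replicate 4, at a mean log2 CPM of 2.16 and its highest, naive replicate 5, at 3.97.

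Among genes whose groups did not overlap, those named here had a mean of at least 5 CPM and were among the 12 of smallest unadjusted p in each direction. They were chosen by this contrast, so their values are a description, and all had an adjusted p of 0.9998 by edgeR's quasi-likelihood test. Fam20b, a kinase that phosphorylates xylose in the linker of proteoglycans (chr1:156678545-156719027), came first among the higher genes. It had 8.44, 8.40, 8.58, 4.11 and 9.93 CPM in naive and 12.3, 13.9, 12.1 and 17.7 CPM in presymptomatic libraries, a log2 fold change of 0.81 ± 0.29 (95% interval 0.22 to 1.41). Thbs2, the matrix protein thrombospondin 2, had 9.94, 8.47, 14.4, 14.5 and 8.12 CPM in naive and 15.5, 17.5, 16.5 and 21.4 CPM in presymptomatic libraries. The 2 highest naive values of Thbs2 were those of replicates 3 and 4, and its log2 fold change of 0.67 was 1.01 without them. Gdf6, a bone morphogenetic protein that patterns the dorsal retina, had 9.81 ± 1.30 CPM in naive libraries (SD, n = 5) against 13.5 ± 1.44 CPM in the presymptomatic ones (SD, n = 4). Top1mt, the mitochondrial topoisomerase, had 4.80 ± 1.61 and 7.59 ± 1.42 CPM, and Cpsf3, the endonuclease that cleaves pre-mRNA before polyadenylation, had 5.75 ± 0.795 and 8.35 ± 1.18 CPM. Tmem51 had 21.9, 24.9, 24.7, 19.1 and 24.0 CPM in naive and 29.2, 35.1, 32.0 and 27.7 CPM in presymptomatic libraries. Hs1bp3 had 31.8, 34.3, 25.4, 22.0 and 30.5 CPM in naive and 39.7, 38.7, 36.8 and 41.2 CPM in presymptomatic libraries, which lay closer together than the naive ones. The other higher genes were Abca4, described above, Ccdc172, Kctd5, an adaptor of cullin ubiquitin ligases, and the noncoding RNA gene D6Ertd474e, with log2 fold changes of 0.37, 0.61, 0.51 and 0.36.

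The lower genes had the smaller p. Ankrd28, a regulatory subunit of a protein phosphatase (chr14:31698768-31830415), had 44.8, 41.8, 27.4, 42.6 and 32.5 CPM in naive and 25.8, 21.5, 18.4 and 26.1 CPM in presymptomatic libraries, a log2 fold change of -0.72 ± 0.22 (95% interval -1.17 to -0.28). Magi3, a scaffold of cell junctions, had 44.4, 45.8, 46.7, 48.6 and 62.2 CPM in naive and 33.4, 29.7, 35.9 and 33.8 CPM in presymptomatic libraries, a log2 fold change of -0.58 ± 0.20. The presymptomatic values of Magi3 lay close together and well below the lowest naive value. Zdhhc14, a palmitoyltransferase, had 106, 127, 101, 177 and 166 CPM in naive and 98.7, 99.3, 91.4 and 95.2 CPM in presymptomatic libraries. Its lowest naive value was close to the highest presymptomatic one. Papolg, a nuclear poly(A) polymerase, had 9.46 ± 3.68 CPM in naive libraries (SD, n = 5) against 4.86 ± 0.561 CPM in the presymptomatic ones (SD, n = 4). Lnp, a protein of endoplasmic reticulum junctions, had 23.2 ± 9.65 and 12.6 ± 1.66 CPM, and Ric1, an activator of the Golgi GTPase Rab6, had 22.6 ± 3.50 and 14.7 ± 1.55 CPM. Hmbox1, a homeobox protein that binds telomeres, had 31.5 ± 5.02 and 21.4 ± 1.47 CPM, and Pigg, an enzyme of GPI anchor synthesis, had 7.54 ± 2.30 and 3.91 ± 1.25 CPM. Sytl3, a synaptotagmin-like protein of vesicle traffic, had 12.2, 14.02, 11.0, 15.6 and 10.5 CPM in naive and 8.99, 7.54, 8.23 and 6.52 CPM in presymptomatic libraries. The remaining lower genes were Samhd1, described above, the transglutaminase gene Tgm7 and the mitochondrial adenylate kinase gene Ak3, the last 2 with log2 fold changes of -0.81 and -0.67.

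**Figure D4:**
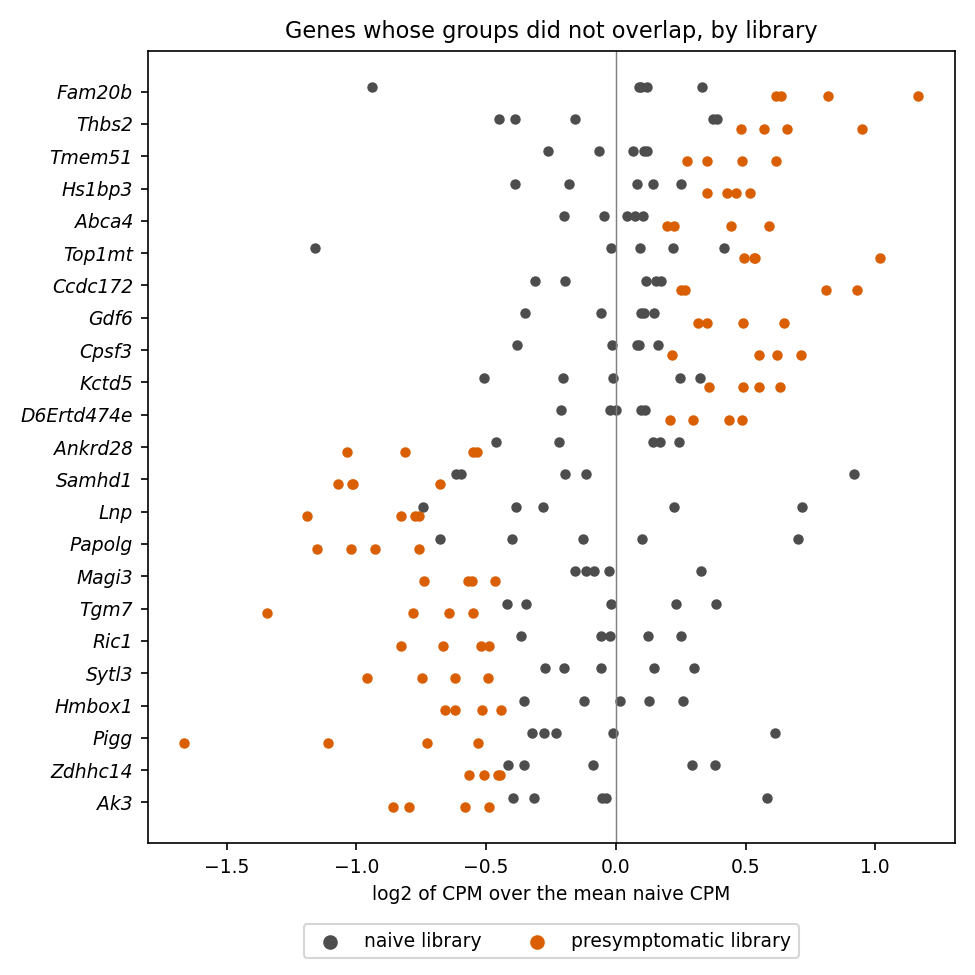
For each of the 23 genes, the log2 ratio of each library's CPM to the mean CPM of the 5 naive libraries (x axis); dark points are naive and orange points presymptomatic libraries. The first 11 genes have all presymptomatic libraries above and the last 12 all below the naive libraries, by choice, with single naive libraries far out for Fam20b (naive replicate 4, 4.11 CPM) and Samhd1 (naive replicate 4, 27.7 CPM).

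Genes shorter than 1000 bp are the class whose start and flanks lay inside the counted interval, and 1704 of them were tested. Of these 760 were higher and 944 lower, 12 lay all above and 7 all below naive (0.365% and 0.482% of all genes did), and the median log2 fold change was -0.06. The 2 genes of smallest p in each direction were 3 microRNA genes and a small nucleolar RNA gene. MicroRNAs pair with target transcripts mainly through a seed near their 5′ end, and their mature sequences (RefSeq, GRCm38.p6) are shown to identify the loci, with the seed, bases 2 to 8, in capitals:
mmu-miR-101b-5p: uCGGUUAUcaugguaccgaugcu
mmu-miR-101b-3p: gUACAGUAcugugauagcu
mmu-miR-208a-5p: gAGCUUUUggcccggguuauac
mmu-miR-208a-3p: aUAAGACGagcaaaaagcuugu
mmu-miR-1967: uGAGGAUCcuggggagaagaugc
No seed is shared among the 5 sequences, and the counts below are of DNA reads at the loci, not of the RNAs.

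Mir101b (chr19:29135279-29135375, inside Rcl1) had 0, 9, 3, 0 and 4 reads in naive and 17, 14, 10 and 2 reads in presymptomatic libraries, over an interval of 1903 bp. In CPM the presymptomatic libraries were all above the naive ones, from 0.466 against at most 0.315, and the log2 fold change was 2.06 ± 0.84. Mir208a (chr14:54949060-54949142, inside the heart myosin gene Myh6) had 0, 3, 2, 0 and 4 reads in naive and 7, 15, 7 and 4 reads in presymptomatic libraries, a log2 fold change of 2.47 ± 1.05. The host genes Rcl1 and Myh6 had log2 fold changes of -0.16 and 0.63. Mir1967 (chr8:124022641-124022722, inside Urb2) had 11, 16, 11, 2 and 2 reads in naive libraries and 0 in each presymptomatic library. Taking 3 reads over the presymptomatic group as the limit that a count of 0 allows, the pooled naive level was 9.35-fold that limit. This takes the naive count as exact and leaves out the spread between libraries. In the edgeR fit its log2 fold change was -5.91, with a 95% interval of -9.24 to -2.59, and Urb2 itself had -0.51. Snord19 (chr14:31016219-31016272, inside Gnl3) had 10, 14, 20, 14 and 2 reads in naive and 6, 0, 5 and 0 reads in presymptomatic libraries, a log2 fold change of -2.13 ± 0.94 with overlapping groups. These 4 loci rest on 9 to 60 reads in naive libraries and 0 to 43 in presymptomatic libraries, and the adjusted p was 0.9998 for each by edgeR's quasi-likelihood test.

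The values of chromosome X turned on the 2 naive libraries named above and on the method of testing. Over all libraries 358 of 1099 tested chromosome X genes (32.6%) were higher in presymptomatic libraries, against 41.6% of all genes, and their median log2 fold change was -0.13. Without naive replicate 3 that median was 0.12, and without naive replicates 3 and 4 it was 0.44, with 900 of 1067 genes higher. Chromosome 11 had a median as low over all libraries, -0.14, and -0.20 without those 2, with 33.8% and 31.4% of its genes higher. Autosome medians lay between -0.14 and 0.01 over all libraries and between -0.20 and 0.04 without those 2. The share of nuclear reads on chromosome X was 5.33 ± 2.18% in naive libraries (SD, n = 5) against 4.99 ± 0.466% in the presymptomatic ones (SD, n = 4; exact permutation p = 0.730, adjusted over 20 chromosomes 1). Receptor genes turned the same way, from a median of -0.05 to 0.78 without naive replicates 3 and 4. With limma voom and quality weights, over all libraries, the median was 0.21 for chromosome X genes and 0.56 for receptor genes. The part of the receptor share in the chromosome X values was not tested. Chromosome 12 had the highest autosome median, 0.01, and a share of 4.22 ± 0.201% in naive libraries (SD, n = 5) against 4.41 ± 0.104% in the presymptomatic ones (SD, n = 4; exact permutation p = 0.143, adjusted 1). Over 6 classes of gene span the shares differed by -0.169 to 0.143 percentage points, with a smallest exact permutation p of 0.778.

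**Figure D5:**
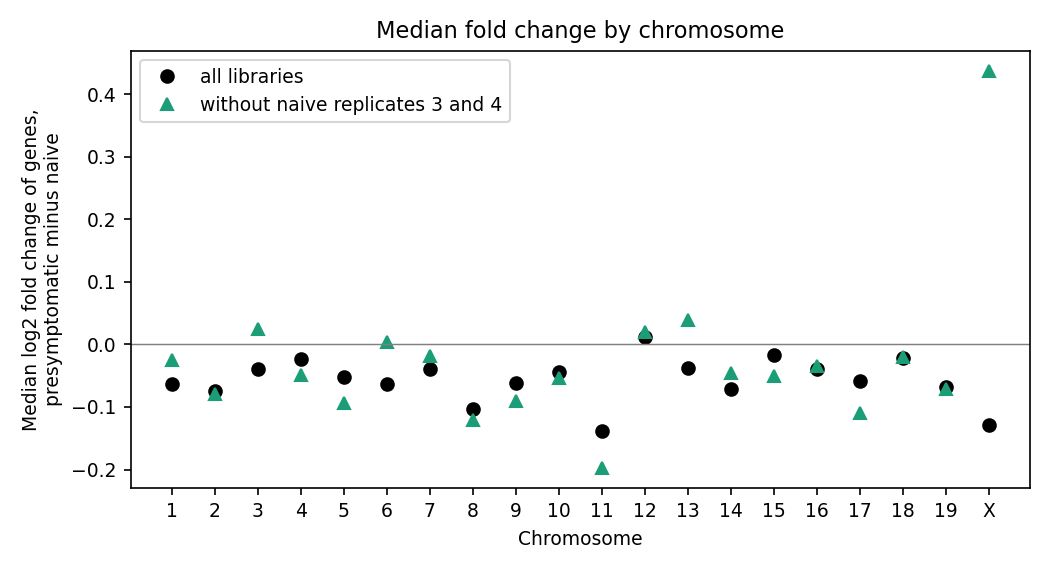
Median log2 fold change, presymptomatic minus naive, of the tested genes on each chromosome (x axis), over all libraries (circles) and without naive replicates 3 and 4 (triangles). Chromosome X moves from -0.13 to 0.44 when those 2 libraries are left out, and the autosomes stay between -0.20 and 0.04.

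Presymptomatic libraries were also set against the later stages, a contrast without the naive means, though the naive libraries enter the shared estimate of the spread. Against onset, edgeR's quasi-likelihood test called 0 of the 29902 tested genes (0%), and 1234 were at an unadjusted p under 0.05 with a smallest adjusted p of 0.9999. Against peak it called 0 (0%), with 1019 at an unadjusted p under 0.05 and a smallest adjusted p of 0.9994. For onset, DESeq2 called 1 gene, an unnamed transcript at chr9:69300420-69305821, lower in presymptomatic libraries with an adjusted p of 0.0280, and edgeR with the replicate number as a block called 1 gene, with an adjusted p of 0.0451. The transcript is named because it was the call, after its values were seen. The rod list had mean log2 CPM of 4.36, 4.46 and 5.20 in onset, all above 3.61, 3.74, 3.57 and 4.35 in presymptomatic libraries. The lowest onset value was close to presymptomatic replicate 4 and to naive replicate 4, at 4.34. The highest was that of onset replicate 3, which had the smallest mitochondrial share of all libraries, 8.36% of interval reads. The rod list was not alone in this. Cone genes had 3.60, 3.60 and 3.84 in onset, all above the presymptomatic libraries, which reached 3.57. Chromosome X genes went the other way, with at most 2.47 in onset and at least 2.59 in presymptomatic libraries. These differences between the stages were not tested.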

How the data were processed

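ATAC-seq libraries of sorted retinal ganglion cells were read from 1 deposited table. Its deposited counts are unscaled whole numbers, 1 per gene and library. In the deposited RPKM values the length term equals the absolute difference between gene span and 2000 bp (largest relative deviation of the implied library total 9.15e-14), the length of a gene trimmed by 1000 bp at each end. RPKM was used for that check and for total reads, 8.48 to 49.9 M over the 9 libraries. Cutadapt, HISAT2 and HTSeq are named in the submitters' processing notes. For versions, genome build, annotation, duplicate removal and any shift of read ends, values are not given in the sources used here. Coordinates are as deposited, without a build, and 86.8% of names matched a RefSeq GRCm38.p6 gene table.

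Counts of all 16 libraries were fitted with edgeR 4.0.16 (R 4.3.3; filterByExpr with a minimum count of 10, TMM, quasi-likelihood, Benjamini-Hochberg at 0.05), and the presymptomatic minus naive contrast was tested over 29902 genes, mitochondrial intervals included. Shares of reads were compared by two-sided exact permutation tests. Log2 CPM used a prior count of 2, and standard errors come from the F statistic. Interval densities used intervals of at least 500 bp. Scripts were tested on simulated data. Counting intervals and limits cover counting error only. No 2 of the 9 libraries were identical or alike within sampling noise (smallest chi-square per gene 5.87).

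The comparison, the gene lists and the alternatives were chosen with earlier results of these data known. Named genes were, in each direction, the 12 of smallest unadjusted p with groups that did not overlap and a mean of at least 5 CPM (gene models without a name, receptors, small RNAs and mitochondrial genes left out), the first 8 ganglion cell markers, the 2 of smallest p in each list, and the 2 of smallest p in each direction under 1000 bp. Alternatives were RLE factors, total nuclear counts, DESeq2 1.42.0, limma voom 3.58.1 with quality weights, no filter, a filter of 50 counts in 4 libraries, the 9 libraries alone, mitochondrial intervals removed, the receptor share as a covariate, the replicate number as a block, and libraries left out. Some genes that these rules name are not reported here.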

Additional observations from a re-analysis of the deposited data

Results flagged for a closer look

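In each group of 4 or 5 libraries, the highest or lowest library was set against the others for 258 sets of values, and 11 had a library far from the rest by Dixon's criterion. Chance gives about 1 in 20.

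Naive replicate 4 was far below the other naive libraries for Fam20b (4.11 CPM) and for the mean log2 CPM of the ganglion cell list (2.14), and far above them for Samhd1 (27.7 CPM). Naive replicate 2 had the lowest share of nuclear reads on chromosome 14 (3.99%), naive replicate 5 the highest Magi3 (62.2 CPM) and naive replicate 1 the highest Pigg (11.5 CPM). Presymptomatic replicate 1 was far above the other presymptomatic libraries for Top1mt (9.72 CPM), Samhd1 (9.17 CPM), Nefh (3.22 CPM) and Nlrp3 (4.56 CPM). Presymptomatic replicate 3 was far above for Opalin, a gene of myelinating oligodendrocytes (10.3 CPM).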

How the results depend on the processing

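The count of 0 genes called between presymptomatic and naive held in all 20 alternatives. Genes at an unadjusted p under 0.05 numbered 348, against 1738 without naive replicates 3 and 4, 1628 with limma voom, 715 with the receptor share as a covariate, 564 without a filter and 203 with the stricter filter. The higher and lower split of these was 105 to 243, against 870 to 758 with limma voom, 334 to 381 with the covariate and 146 to 150 when scaled to total nuclear counts. Leaving out 1 library gave 251 (without presymptomatic replicate 4) to 662 (without naive replicate 3).

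Whether replicate numbers pair the samples was not tested. Deviations of same-numbered libraries correlated at 0.120, -0.088, 0.133 and 0.084, and those of differently numbered libraries at -0.244 to 0.198. With the replicate number as a block 0 genes were called and 282 reached an unadjusted p under 0.05. Against onset, the block and DESeq2 each called 1 gene.

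When single libraries were left out, the mitochondrial difference ran from -12.7 (without naive replicate 2) to -6.37 percentage points, the receptor difference from -0.0350 to 0.0597 and the chromosome X difference from -0.837 (without naive replicate 2) to 0.375 (without naive replicate 3).

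Direction turned in 7 of the named genes, and the cause was not tested. On the log2 scale Rbpms was at 0.051 with total nuclear counts, 0.058 with voom, 0.016 with the strict filter, 0.000867 with the 9 libraries alone, 0.0048 without mitochondrial intervals, 0.00442 with the covariate and 0.085 with the block. Pou4f1 was at 0.063, 0.30, 0.000961 and 0.50 with total nuclear counts, voom, the covariate and without naive replicates 3 and 4. Nefm was at -0.031 with voom and -0.35 without naive replicates 3 and 4, Adgre1 at 0.023 with voom, Nefh at 0.00395 with the covariate and 0.031 with the block, and Slc6a9 at 0.23 with the block. With single libraries left out Rbpms ran from -0.11 to 0.077, Pou4f1 from -0.30 to 0.30, Nefm from -0.14 to 0.30, Nefh from -0.54 to 0.10, Slc6a9 from -0.70 to 0.15 and Slc17a6 from -0.31 to 0.015.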

Other observations

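The later stages were set beside the genes whose presymptomatic and naive libraries did not overlap. The later values come from libraries that did not enter the choice of the genes. They are set against presymptomatic and naive means that did, so a later mean away from the presymptomatic one can follow from the choice alone. The later-stage values were not tested and share the naive baseline. Ankrd28, at means of 37.8 CPM in naive and 22.97 CPM in presymptomatic libraries, had means of 30.4 CPM at onset (n = 3) and 38.6 CPM at peak (n = 4). Magi3, at 49.6 and 33.2 CPM, had 45.3 and 51.9 CPM at onset and peak. Sytl3, at 12.7 and 7.82 CPM, had 12.7 and 12.8 CPM, and Hmbox1, at 31.5 and 21.4 CPM, had 30.3 and 29.1 CPM. In Magi3, Sytl3 and Hmbox1 the means of both later stages lay nearer the naive than the presymptomatic mean. Lnp, at 23.2 and 12.6 CPM, had 12.5 and 14.8 CPM at onset and peak and stayed near the presymptomatic mean.

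Among the higher genes Tmem51, at 22.9 CPM in naive and 31.0 CPM in presymptomatic libraries, had 25.5 and 24.2 CPM at onset and peak, and Thbs2, at 11.1 and 17.7 CPM, had 12.4 and 13.3 CPM. Kctd5, at 4.36 and 6.21 CPM, had 6.95 and 8.47 CPM, and D6Ertd474e, at 9.66 and 12.4 CPM, had 12.2 and 20.2 CPM. The genes named in this comparison of stages were picked after their values were seen, from both directions.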
